A study of Mus musculus with 15 samples.

Results

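Ros1, Met, Mst1r, Ret, Kit, Axl, Ddr1 and Insr, 8 receptor tyrosine kinases outside the EGF receptor family, were followed in dysplastic foci of the mouse lung. All probe sets that the array annotation gives to 1 of these genes only were taken, which gave 21 of the 45037 non-control probe sets. Of these 21, a mean of more than 100 over the 15 arrays was reached by 11, from 6 of the 8 genes, and only these were tested. Ros1, Met, Axl and Insr had 1 such probe set each, Kit had 2 and Ddr1 had 5. Mst1r and Ret had none.

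SP-C/c-raf mice carry a c-raf-1 transgene under the surfactant protein C promoter, which is active in the alveolar epithelium. Dysplasia samples were laser-microdissected from lesions of such mice at 5 to 7 months of age. Transgenic samples were unaltered lung of dysplasia-bearing SP-C/c-raf mice of the same age, and the methods state that both tissues were taken from the same animals. Non-transgenic samples came from littermates without the transgene, aged 7 to 10 months, so that age and the transgene cannot be told apart in a comparison of unaltered transgenic with non-transgenic lung. In a comparison of dysplasia with non-transgenic lung, dysplasia, age and the transgene cannot be told apart. The mice had been kept on C57BL/6. Each group held 5 arrays, and the methods state that the tissue pooled for RNA came from the same animal. Sex was not balanced either, which bears on both comparisons with non-transgenic lung. High Xist without Y-linked signal was found on non-transgenic arrays 2 to 5 and on dysplasia 3 and transgenic 3, and Y-linked signal without high Xist on transgenic arrays 1, 2, 4 and 5, on dysplasia 1, 2 and 5 and on non-transgenic 1.

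Mean signal was 691.7 to 774.7 per array, and Sftpc, the gene of surfactant protein C, was bright on all 15 arrays (15342 to 36063). The ratio of 5' to 3' actin signal, a measure of RNA integrity, was 12.5% to 75.2%. Xist (9674) and the Y-linked Eif2s3y (494.6) were both bright on dysplasia 4, whereas transgenic 4 had 85.0 for Xist and 1567 for Eif2s3y. On no other array were both bright, so that RNA of 1 animal cannot be taken as given for dysplasia 4. The title of transgenic 2 gives unaltered tissue and another of its labels gives tumor, so results were also computed without each of these 2 arrays. All 18 endothelial markers were lower in dysplasia than in transgenic tissue (median log2 change -1.61, against -0.01 over all tested probe sets), while 9 of 10 tested pan-epithelial markers were higher (median 1.36). Of all tested probe sets, 17.9% were lower and 15.3% higher at an adjusted p under 0.05 (limma).

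Receptor tyrosine kinases span the cell membrane, bind a ligand outside the cell, pair up and phosphorylate each other and the adaptors that dock on them. Ras and Raf lie downstream of these adaptors. Met and its relative Mst1r (the receptor RON) bind hepatocyte growth factor and macrophage-stimulating protein, both of which are secreted as inactive precursors and cut by serine proteases. Ret binds the GDNF family together with a GFRA co-receptor. Kit binds stem cell factor, Axl binds Gas6, Ddr1 binds collagen and Insr binds insulin and insulin-like growth factors. Ros1 is known from the mouse epididymis, where Nell2 is its ligand. Fusions of ROS1 and RET and a splice form of MET are drivers of human lung adenocarcinoma. In mouse lung, Kit is known from mast cells and from capillary endothelium.

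The stretches upstream of Ros1, Met and Kit are shown because the differences described here turn on these 3 genes. RefSeq promoter entries (build GRCm38.p6) matched 6 of the 8 genes by symbol. The 250 bases before the annotated start are given 5′ to 3′ on the gene's strand, with capitals for GGGCGG (a GC box) and for TGANTCA (the AP-1 motif).
Ros1: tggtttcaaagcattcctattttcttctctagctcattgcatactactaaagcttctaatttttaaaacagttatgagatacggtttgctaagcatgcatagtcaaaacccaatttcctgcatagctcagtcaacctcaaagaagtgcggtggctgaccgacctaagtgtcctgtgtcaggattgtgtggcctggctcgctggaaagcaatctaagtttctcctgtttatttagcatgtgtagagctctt
Met: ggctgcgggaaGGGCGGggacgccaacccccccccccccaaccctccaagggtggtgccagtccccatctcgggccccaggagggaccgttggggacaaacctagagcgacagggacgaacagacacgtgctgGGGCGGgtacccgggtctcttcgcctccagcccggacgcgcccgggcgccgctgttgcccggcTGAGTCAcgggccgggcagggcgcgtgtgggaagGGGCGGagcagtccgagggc
Kit: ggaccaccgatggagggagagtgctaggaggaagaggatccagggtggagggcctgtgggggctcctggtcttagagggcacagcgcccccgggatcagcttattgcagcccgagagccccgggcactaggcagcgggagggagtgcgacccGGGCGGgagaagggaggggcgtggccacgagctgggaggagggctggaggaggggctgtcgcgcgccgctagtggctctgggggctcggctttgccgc
The Ros1 stretch lies at chr10:52195245-52195494 on the minus strand, that of Met at chr6:17463707-17463956 and that of Kit at chr5:75574737-75574986, both on the plus strand. Their GC content was 41.6% for Ros1, 74.0% for Met and 70.8% for Kit, with a median of 52.4% over 32851 windows of 250 bases. In all, 4 motifs were searched on both strands, and no matches overlapped. GGGCGG occurred 3 times upstream of Met and 1 time upstream of Kit, and 32.7% of all windows hold it. TGANTCA occurred 1 time upstream of Met, and 6.75% of all windows hold it. CCGGAA (Ets) is held by 12% of all windows and by none of these 3. TGTTTNC (forkhead) is held by 17.8% of all windows and by none of these 3. The Ros1 window matched none of the 4 motifs. A match describes letters only and says nothing of binding.

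Compared with transgenic unaltered tissue, dysplasia had more Ros1 and Met signal, less Kit signal, and more signal in 2 of the 5 Ddr1 probe sets. By limma, unpaired, on the log2 of signal plus 50, 6 of the 11 tested probe sets passed an adjusted p of 0.05 (4 higher and 2 lower), while 33.2% of all 21658 tested probe sets passed (15.3% higher and 17.9% lower). The median log2 change of the 11 was -0.03, against -0.01 over all tested. Ros1, Met and the brighter Kit probe set had groups that did not overlap, which held for 25.3% of all tested probe sets. Compared with non-transgenic lung, 5 of the 11 passed (3 higher and 2 lower), where 44.0% of all tested probe sets passed (20.7% higher and 23.3% lower) and 33.3% did not overlap. Both comparisons share the dysplasia arrays. With such a background nothing was read from these counts, and the genes were taken 1 by 1.

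**Figure D1:**
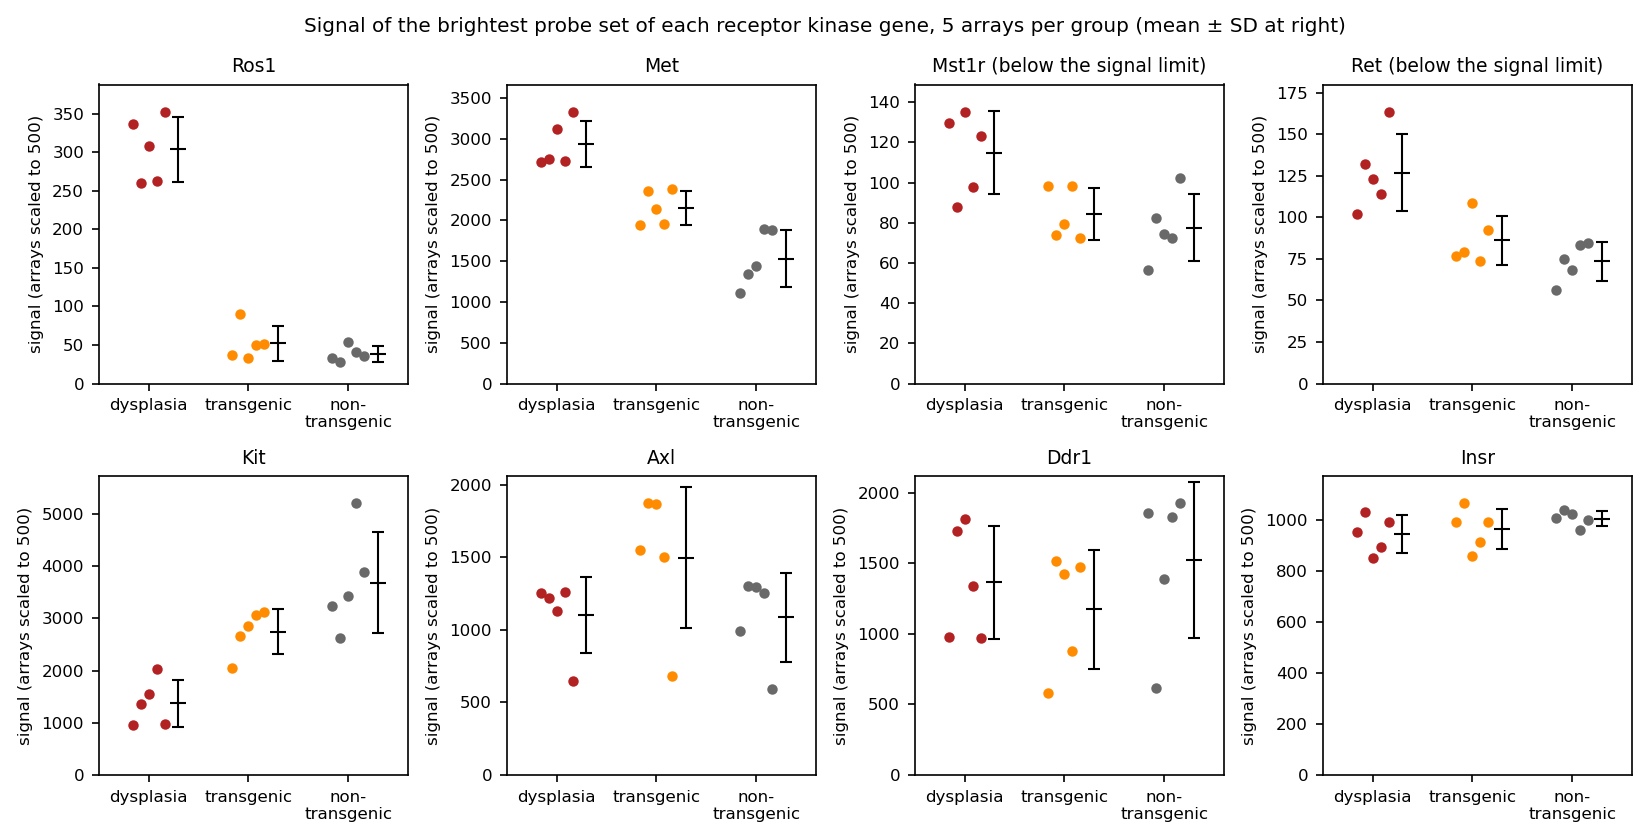
Signal of the brightest probe set of each of the 8 receptor genes on the 5 arrays of each group, on a linear axis from 0 (arrays scaled to a target of 500). Points are arrays and the bar at the right of each group is the mean ± SD. Ros1 lies at 259.7 to 352.7 in dysplasia, above all other arrays, Met steps down over the 3 groups without overlap, and Kit in dysplasia lies below every other array.

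Ros1 had the largest log2 change among the 6 tested genes in both comparisons with dysplasia. Its signal (probe set 1425970_a_at) was 336.3, 259.7, 307.8, 263.1 and 352.7 in dysplasia 1 to 5. Transgenic arrays 1 to 5 gave 36.4, 90.0, 32.5, 49.5 and 51.3, and non-transgenic arrays gave 33.4, 27.5, 53.6, 41.4 and 36.0. Every dysplasia array was thus above 100 and every other array below it, so that Ros1 met the signal limit through dysplasia alone. With no limit its adjusted p was 1.63e-05 against transgenic and 5.34e-07 against non-transgenic lung (limma). Mean signal was 303.9 ± 42.0 in dysplasia and 51.9 ± 22.8 in transgenic tissue (SD, n = 5 each), a ratio of 5.86 and a log2 change of 1.81 (SE 0.15, adjusted p = 8.18e-06, limma). Against non-transgenic lung, at 38.4 ± 9.85, the ratio was 7.92 and the log2 change 2.0 (SE 0.11, adjusted p = 2.80e-07). With means below 100 in both kinds of unaltered lung the size of these ratios is not firm, and without the offset of 50 the log2 changes were 2.64 and 3.01. Transgenic 2, whose labels conflict, held the highest Ros1 signal outside dysplasia. The lowest and the highest log2 change with any 1 array left out were 1.74 and 1.94 against transgenic tissue, 1.94 being the value without transgenic 2.

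Between transgenic and non-transgenic lung Ros1 did not pass (log2 change 0.19, SE 0.14, adjusted p = 0.675, limma). Nell2, the epididymal ligand of mouse Ros1, was below the signal limit, at 3.37 to 8.59 in dysplasia, 8.77 to 41.0 in transgenic tissue and 9.13 to 52.4 in non-transgenic lung. The genes whose profile lay nearest to that of Ros1 over the 15 arrays were Fut2, Esrp1, Gjb2, Tspan1 and Rab15. Nearness was measured as the root mean square difference of centred log2 values, over 11603 genes, and was 0.16 for Fut2 and 0.22 for Rab15, where Ros1 itself varied by 0.92 around its mean. Fut2, a fucosyltransferase, averaged 347.0 in dysplasia, 59.0 in transgenic tissue and 37.1 in non-transgenic lung. Only genes above the signal limit were searched, and Fut2, like Ros1, met it through dysplasia alone.

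Pan-epithelial markers were higher in dysplasia, as were Ros1 and Met, while markers of single epithelial types were not uniformly so. Against transgenic tissue 6 of 9 alveolar type 1 markers fell and 1 rose, and 8 of 9 alveolar type 2 markers did not pass. Of all tested probe sets 17.9% fell and 15.3% rose there. Against non-transgenic lung 6 of 9 alveolar type 1 markers fell and 1 rose, and 3 of 9 alveolar type 2 markers rose and none fell. In that comparison 23.3% of all tested probe sets fell and 20.7% rose. The summed signal of the 10 tested pan-epithelial markers, among them Epcam and Krt8, was 65508 to 83153 over the dysplasia arrays, 28916 to 31067 over the transgenic and 22648 to 26796 over the non-transgenic arrays. Cdh1, the gene of E-cadherin, was the 1 of the 10 that did not pass (log2 change 0.30 against transgenic tissue, adjusted p = 0.156, limma). Nkx2-1, the other gene on this list, was below the signal limit. Their part in the Ros1 and Met results was not tested. In microdissected tissue, more cells of a type and more RNA per cell cannot be told apart.

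Met formed 3 separate levels. Its signal (1434447_at) was 2714, 2754, 3126, 2732 and 3332 in dysplasia, 1948, 2355, 2141, 1957 and 2379.7 in transgenic unaltered tissue, and 1104, 1347, 1438, 1892 and 1878 in non-transgenic lung. No array of one group reached into the range of another. Met averaged 2932 ± 281.5 in dysplasia and 2156 ± 207.8 in transgenic tissue (SD, n = 5 each), a ratio of 1.36 (log2 change 0.43, SE 0.10, adjusted p = 0.00584, limma). Relative to non-transgenic lung, at 1532 ± 344.8, the ratio was 1.91 (log2 change 0.94, SE 0.15, adjusted p = 0.000367). The step between transgenic and non-transgenic lung, a ratio of 1.41, did not pass (log2 change 0.50, SE 0.15, adjusted p = 0.159), although those groups did not overlap, which held for 4.30% of all tested probe sets there. The second Met probe set, 1422990_at, was dim, at 5.40 to 71.1 in dysplasia, 3.50 to 28.2 in transgenic tissue and 4.80 to 27.5 in non-transgenic lung. Adam19, Uap1l1, Ptk2b, Egfl6 and Prr15 had the profiles nearest to Met, with a root mean square difference of 0.14 for Adam19 and 0.15 for Prr15, where Met varied by 0.43.

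Most tested proteases and inhibitors around Met and Mst1r were higher in dysplasia. Of 12 genes on this list 9 were tested, and 7 rose and none fell against either control tissue (median log2 change 1.01 against transgenic and 1.31 against non-transgenic lung, with -0.01 and -0.03 over all tested probe sets). Over all tested probe sets 15.3% rose against transgenic and 20.7% against non-transgenic lung. Hpn is the gene of hepsin, a membrane protease that cuts the precursor of hepatocyte growth factor. Its signal was 1234, 1159.7, 1507, 1122 and 1329.6 in dysplasia, 221.1, 336.9, 286.5, 212.4 and 193.3 in transgenic tissue and 181.7, 105.2, 151.1, 159.5 and 133.1 in non-transgenic lung. All 5 dysplasia arrays were above every other array, and the log2 change of Hpn was 2.15 against transgenic and 2.76 against non-transgenic lung (adjusted p = 2.23e-06 and 6.55e-08, limma). Hgfac, the gene of another activator of this growth factor, changed by 1.75 and 2.61, and the matriptase gene St14 by 1.59 and 2.02 on the log2 scale. Spint1, which encodes an inhibitor of these enzymes, changed by 1.61 and 2.38. Activators and their inhibitor thus rose together, beside the higher pan-epithelial sums given above, and the part of epithelial cells in these changes was not tested. Hgfac and Spint1 were also higher in transgenic than in non-transgenic lung, by log2 changes of 0.86 (adjusted p = 0.0201, limma) and 0.78 (adjusted p = 0.0250). Adam10 and Adam17, which shed receptors from the cell surface, did not pass (log2 changes 0.04 and 0.14 against transgenic tissue).

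The ligands of Met and Mst1r were dim. Hgf, the gene of hepatocyte growth factor, was at 3.80 to 44.4 in dysplasia, 51.2 to 127.0 in transgenic tissue and 73.9 to 136.9 in non-transgenic lung, with a mean under the limit. Mst1, the gene of macrophage-stimulating protein, was at 10.9 to 52.6 in dysplasia and 16.2 to 46.0 on the other arrays. Plxnb1, a plexin that associates with Met and with Mst1r, was bright and rose. Its signal was 3183, 3025, 4004, 2803 and 3228 in dysplasia and 904.6, 1094, 1141, 1040.0 and 1083 in transgenic tissue (log2 change 1.57, adjusted p = 3.25e-06, limma), and the log2 change against non-transgenic lung was 1.84. Cd44, a surface glycoprotein of which a splice form acts as co-receptor of Met, changed by 0.41 and 0.75 (adjusted p = 0.0241 and 0.000183).

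Mst1r and Ret stayed under the signal limit and had no test in the comparisons above. Mst1r (1420461_at) had signals of 129.7, 88.1, 135.3, 97.9 and 123.4 in dysplasia, 98.1, 73.9, 79.2, 98.4 and 72.4 in transgenic tissue and 56.5, 82.6, 74.5, 72.5 and 102.1 in non-transgenic lung. Its 3 highest values were dysplasia arrays, and the groups overlapped. Ret (1436359_at) had 101.8, 131.8, 122.9, 114.2 and 163.5 in dysplasia, 76.9, 78.9, 108.7, 73.4 and 92.3 in transgenic tissue and 56.1, 74.9, 68.1, 83.5 and 84.6 in non-transgenic lung. Here dysplasia and non-transgenic arrays did not overlap. When all 45037 probe sets were tested, Ret changed by 0.38 on the log2 scale against transgenic (SE 0.11, adjusted p = 0.0339, limma) and by 0.51 against non-transgenic lung (SE 0.11, adjusted p = 0.00417). The log2 change of Mst1r was 0.29 against transgenic tissue (adjusted p = 0.0908) and 0.37 against non-transgenic lung (adjusted p = 0.0395). In that fit 17.9% of all probe sets passed against transgenic and 24.9% against non-transgenic lung. The other Ret probe set, 1421359_at, averaged 44.9 in dysplasia, 50.3 in transgenic tissue and 38.9 in non-transgenic lung.

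Gdnf, the ligand that gives its name to the family bound by Ret, was above the limit and rose. It read 853.8, 945.0, 1165, 1058 and 1246 in dysplasia, 414.0, 444.4, 358.5, 471.8 and 421.5 in transgenic unaltered tissue and 275.0, 309.5, 483.2, 350.4 and 418.8 in non-transgenic lung. The lowest dysplasia array was above every other array. The log2 change of Gdnf was 1.22 against transgenic (SE 0.12, adjusted p = 2.14e-05, limma) and 1.41 against non-transgenic lung (SE 0.15, adjusted p = 2.11e-05). The co-receptor through which GDNF acts, Gfra1, was below the limit (36.9 to 129.9 in dysplasia and 22.5 to 74.6 on the other arrays). Gfra2, the co-receptor of neurturin, fell, with 380.3 to 566.6 in dysplasia, 1041 to 1649.7 in transgenic tissue and 1359 to 2228 in non-transgenic lung (log2 changes -1.45 and -1.78, adjusted p = 2.47e-05 and 1.97e-06). Nrtn, the gene of neurturin, had a log2 change of 0.52 against non-transgenic lung (adjusted p = 0.0237) and of 0.10 against transgenic tissue (adjusted p = 0.657). Artn, a further ligand, was below the limit, at 70.9 to 122.3 in dysplasia and 19.6 to 65.3 on the other arrays.

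Kit fell in dysplasia. Its brighter probe set (1452514_a_at) had signals of 949.8, 1363, 1545, 2029 and 981.1 in dysplasia, 2044, 2662, 2856, 3066 and 3122 in transgenic tissue, and 3244, 2632, 3434, 5209.7 and 3892 in non-transgenic lung. The highest dysplasia array, number 4, lay just under the lowest transgenic array, number 1. Mean signal was 1374 ± 445.2 in dysplasia and 2750.2 ± 434.7 in transgenic tissue (SD, n = 5 each), a ratio of 0.499 (log2 change -1.02, SE 0.20, adjusted p = 0.00262, limma). With 3682 ± 966.2 in non-transgenic lung the ratio was 0.373 (log2 change -1.41, SE 0.23, adjusted p = 0.000430). The dimmer probe set (1415900_a_at) gave 81.7, 123.4, 40.2, 35.5 and 29.4 in dysplasia, 164.4, 150.9, 165.3, 118.5 and 72.1 in transgenic tissue and 194.2, 156.4, 174.3, 152.1 and 69.2 in non-transgenic lung. Its log2 changes were -0.75 (adjusted p = 0.0288) and -0.86 (adjusted p = 0.0162), and its groups overlapped. Its mean was 62.1 in dysplasia, 134.2 in transgenic tissue and 149.2 in non-transgenic lung, so that it met the signal limit through unaltered lung alone. With no limit its adjusted p was 0.0489 against transgenic and 0.0278 against non-transgenic lung (limma). Its call against transgenic tissue was lost without any 1 of dysplasia 3, 4 and 5 or transgenic 1, 2 and 3 (adjusted p up to 0.0686). Without dysplasia 4 the brighter probe set changed by -1.17 against transgenic tissue (adjusted p = 0.000664). Transgenic and non-transgenic lung differed by -0.39 for the brighter probe set (SE 0.18, adjusted p = 0.406).

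Kitl, which encodes stem cell factor, the ligand of Kit, fell as well. Kitl had a signal of 3604, 2826, 2964, 4899 and 3710.5 in dysplasia, 8868, 8263, 9406, 10436 and 10269 in transgenic tissue and 10146, 10858, 12068, 10112 and 11183 in non-transgenic lung. Dysplasia 4 was the highest of its group for Kitl as it was for the brighter Kit probe set. It was also the highest of its group for the summed endothelial (41313), fibroblast (40714) and smooth muscle and pericyte (8592) markers. The same held for the lymphocyte (2753) and mesothelial (625.9) sums, and not for the other marker lists. The part of these cells in the Kit and Kitl values of this array was not tested. The log2 change of Kitl was -1.40 against transgenic (SE 0.15, adjusted p = 3.40e-05, limma) and -1.61 against non-transgenic lung (SE 0.14, adjusted p = 5.44e-06). The profiles nearest to Kit were those of Reln, Sned1, Rab6b, Calcrl and Ccdc28b, at a root mean square difference of 0.18 for Reln and 0.23 for Ccdc28b, where Kit varied by 0.67.

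Endothelial cells and mast cells are known to carry Kit. The summed signal of the 18 endothelial markers was 28034 to 41313 in dysplasia, 79428 to 105432 in transgenic tissue and 92337 to 116369 in non-transgenic lung. All 18 fell in both comparisons with dysplasia, where 17.9% and 23.3% of all tested probe sets fell. Of 10 mast cell markers only Mcpt2 and Hdc were above the limit, with log2 changes of 2.99 and 1.13 against transgenic tissue. Mcpt2 was above it through dysplasia alone (mean 755.5, against 45.5 in transgenic tissue and 6.93 in non-transgenic lung). The summed signal of both was 6517 to 9789.7 in dysplasia, 2574 to 4160.1 in transgenic tissue and 1015 to 1528 in non-transgenic lung. Cpa3, Cma1, Mcpt4, Mcpt1, Tpsb2, Tpsab1, Fcer1a and Ms4a2, the other 8 and the defining genes of mast cells, were all below the limit, so that no direction was read for mast cells. The part of these cells in the fall of Kit was not tested. Among the kinases of the Kit family, Pdgfra had log2 changes of -1.38 and -1.49 (adjusted p = 7.24e-06 and 2.03e-06, limma), and Csf1r, the receptor of macrophage colony-stimulating factor, had -0.70 and -0.70. Pdgfrb, a receptor of pericytes, passed against non-transgenic lung (log2 change -0.80, adjusted p = 0.00399) and did not pass against transgenic tissue (-0.53, adjusted p = 0.112). Flt3 had log2 changes of -0.13 and 0.23 and did not pass in either.

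**Figure D2:**
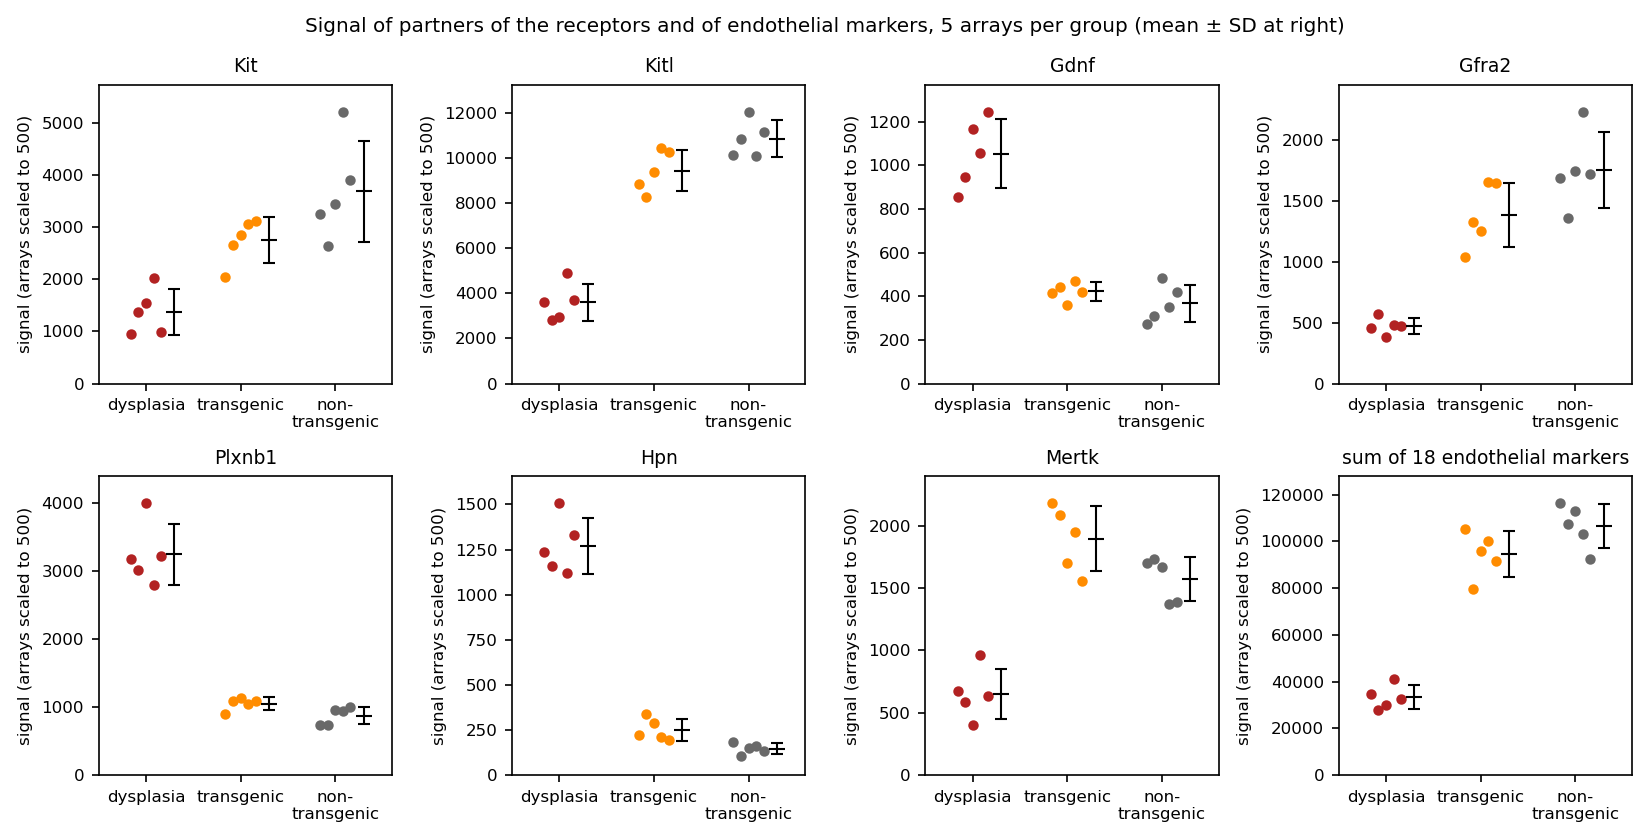
Signal of Kit, of 6 partner genes and of the sum of 18 endothelial markers on the 5 arrays of each group, on linear axes from 0 (arrays scaled to a target of 500). Points are arrays and bars at the right are the mean ± SD. Kit, Kitl, Gfra2, Mertk and the endothelial sum lie lower in all 5 dysplasia arrays than on any other array, and Gdnf, Plxnb1 and Hpn lie higher.

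Axl, the receptor of Gas6, did not pass in the unpaired test, and 1 array of each group read low. Its signal (1423586_at) was 1255, 1221, 1127, 1262 and 648.6 in dysplasia, 1552, 1872, 1868, 1504 and 684.8 in transgenic tissue and 993.1, 1304, 1297, 1255 and 589.2 in non-transgenic lung. Array 5 was the lowest of its group in all 3 groups. The same arrays had the lowest actin ratio of their group, 25.1% in dysplasia, 12.5% in transgenic tissue and 14.1% in non-transgenic lung. The unpaired log2 change against transgenic tissue was -0.38 (SE 0.27, adjusted p = 0.328, limma). No source ties an array number to a mouse, and dysplasia 4 and transgenic 4 differed in Xist. Each dysplasia array was lower than the transgenic array of its number, with log2 differences of -0.30, -0.60, -0.70, -0.24 and -0.07. With the number as a block the same change had an adjusted p of 0.0152, and with the actin ratio as a covariate the change was -0.60 (adjusted p = 0.00981). Without the arrays numbered 5 it was -0.46 (adjusted p = 0.0145), and without transgenic 5 alone it was -0.63 (adjusted p = 0.0293). Against non-transgenic lung the change was 0.03 (adjusted p = 0.926), and between transgenic and non-transgenic lung it was 0.42 (SE 0.29, adjusted p = 0.631). The second Axl probe set, 1438621_x_at, was dim throughout (5.90 to 18.2 in dysplasia and 21.7 at most on the other arrays).

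**Figure D3:**
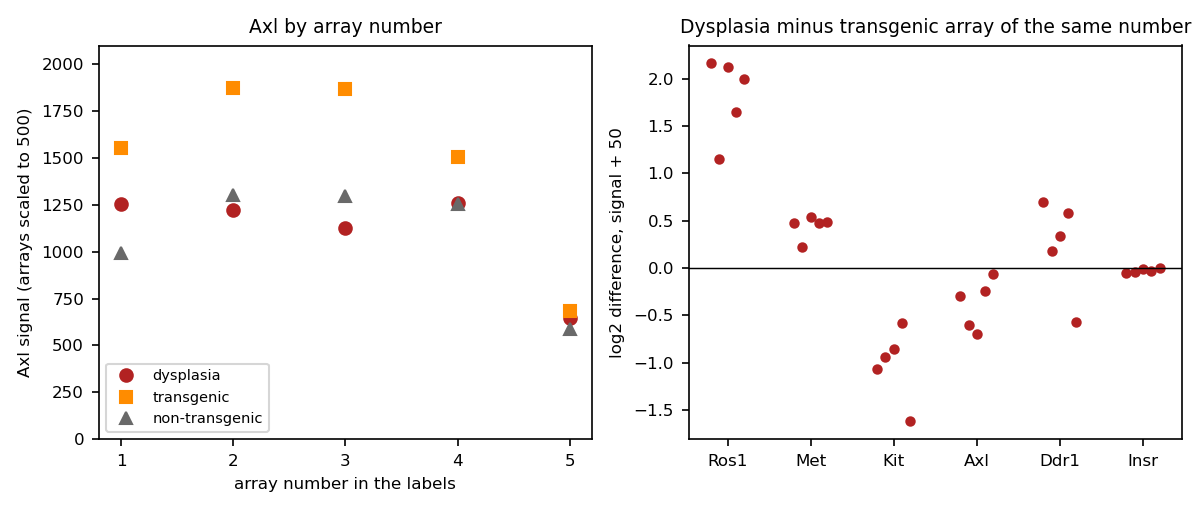
Left, Axl signal (arrays scaled to a target of 500) against the number that the labels give each array, for the 3 groups. Right, the log2 difference in signal plus 50 between the dysplasia and the transgenic array of the same number for the brightest probe set of 6 genes, 1 point per number in order from left to right. Axl is lowest on array 5 in each group. Ros1 and Met are above 0, and Kit, Axl and Insr below 0, in 5 of 5 numbers, with no Insr value lower than -0.05.

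Around Axl, Gas6 rose and the related kinase gene Mertk fell. Gas6, a vitamin K-dependent protein, was at 6338 to 8364 in dysplasia, 4327 to 6524 in transgenic tissue and 4273 to 5321 in non-transgenic lung (log2 changes 0.49 and 0.55, adjusted p = 0.00929 and 0.000811, limma). Pros1, the gene of protein S, a ligand of Mertk and Tyro3, had log2 changes of -0.32 (adjusted p = 0.0678) and -0.36 (adjusted p = 0.00682). Mertk was at 405.1 to 962.2 in dysplasia, 1559.5 to 2182 in transgenic tissue and 1372 to 1737 in non-transgenic lung (log2 changes -1.51 and -1.25, adjusted p = 0.000106 and 0.000200). Tyro3, the remaining kinase of the family, was below the limit, at 74.8 to 149.5 in dysplasia and 21.1 to 59.6 on the other arrays. Mertk also belongs to the list of macrophage and dendritic cell markers, of which 3 rose and 8 fell among 14 tested against transgenic tissue. Over all tested probe sets 15.3% rose and 17.9% fell there. Against non-transgenic lung 4 of the 14 rose and 3 fell (median log2 change 0.23), where 20.7% of all tested probe sets rose and 23.3% fell. Mertk itself was among those that fell in both comparisons. The 14 markers had summed signals of 51625 to 65554 in dysplasia, 58277 to 77866 in transgenic tissue and 46669 to 64969 in non-transgenic lung. Their part in the Axl and Mertk values was not tested.

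Ddr1, the collagen receptor of epithelial cells, gave no single direction. Of its 8 probe sets 5 were tested, and against transgenic tissue 3 had a positive and 2 a negative log2 change (-0.26 to 0.46). The 2 negative ones lay near the signal limit of 100 and did not pass, so that little can be read from their sign. Probe set 1437619_x_at averaged 117.3 in dysplasia and 134.5 in transgenic tissue (log2 change -0.14, adjusted p = 0.492, limma). For 1459990_at the means were 83.9 and 107.6 (log2 change -0.26, adjusted p = 0.321). The 3 brighter ones were all positive against transgenic tissue, and the brightest was negative against non-transgenic lung. Probe set 1415797_at had signals of 874.2, 682.0, 860.4, 500.2 and 720.0 in dysplasia, 621.9, 502.6, 489.3, 561.2 and 388.4 in transgenic tissue and 565.3, 400.1, 552.9, 561.0 and 492.5 in non-transgenic lung. Its log2 changes were 0.46 (SE 0.16, adjusted p = 0.0481, limma) and 0.45 (SE 0.15, adjusted p = 0.0334), with overlapping groups. The call against transgenic tissue was lost without any 1 of dysplasia 1, 2, 3 and 5 or transgenic 2, 3, 4 and 5 (adjusted p up to 0.111), and that against non-transgenic lung without any 1 of dysplasia 1, 3 and 5 or non-transgenic 2 and 5 (up to 0.08). The call against non-transgenic lung was also lost with Xist as a covariate (0.109), with no signal limit (0.0508) and by SAM (q = 0.0778). Probe set 1435820_x_at rose by 0.34 against transgenic tissue (adjusted p = 0.0292), while 0.34 against non-transgenic lung did not pass (adjusted p = 0.0869) except with the number as a block (adjusted p = 0.0352). Its call against transgenic tissue was lost without any 1 of dysplasia 4 and 5 or transgenic 1, 2 and 4 (up to 0.0774). The brightest probe set, 1456226_x_at, was at 972.2 to 1813 in dysplasia, 580.4 to 1519.6 in transgenic tissue and 613.7 to 1926 in non-transgenic lung, and did not pass (log2 change 0.25, adjusted p = 0.560, and -0.10, adjusted p = 0.832). The suffix x in these names marks probes that can also match other transcripts. Ddr2, the collagen receptor of mesenchymal cells, fell in both comparisons (log2 changes -1.03 and -1.12, adjusted p = 4.15e-05 and 2.09e-05). Of 12 tested fibroblast markers 5 fell against transgenic tissue, as did 17.9% of all tested probe sets. The sums of the fibroblast markers were 30753 to 40714 in dysplasia, 50720.5 to 62329 in transgenic tissue and 57889.8 to 62887 in non-transgenic lung. The part of these markers in the fall of Ddr2 was not tested. The collagen genes Col1a1, Col1a2, Col3a1 and Col4a1, whose products are ligands of these receptors, did not pass against transgenic tissue (log2 changes 0.02, -0.31, 0.33 and 0.27). Against non-transgenic lung Col4a1 passed (log2 change 0.28, adjusted p = 0.0354, limma) and the other collagen genes did not.

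Insr, the insulin receptor, varied least of the 6 tested genes, by a root mean square of 0.09 around its mean. Its signal (1434446_at) was 954.2, 1032, 851.4, 894.2 and 991.7 in dysplasia, 992.4, 1066, 859.2, 912.3 and 993.5 in transgenic tissue and 1006, 1037, 1022, 961.3 and 1000.3 in non-transgenic lung. The ranges of the 3 groups overlapped, and the log2 changes were -0.03 (SE 0.09, adjusted p = 0.859, limma) and -0.09 (SE 0.08, adjusted p = 0.405). The ligands of its family moved apart. Igf1, an insulin-like growth factor, had 619.2 to 1194 in dysplasia, 172.1 to 419.8 in transgenic tissue and 356.7 to 724.6 in non-transgenic lung (log2 changes 1.38 and 0.84, adjusted p = 0.000571 and 0.00737). Igf2, its imprinted relative, had 136.7 to 168.0 in dysplasia, 247.5 to 380.6 in transgenic tissue and 376.2 to 597.8 in non-transgenic lung (log2 changes -0.92 and -1.27, adjusted p = 0.000111 and 8.39e-06). Igf1r, their main receptor, had a log2 change of 0.59 against transgenic tissue (adjusted p = 0.0309) and of 0.48 against non-transgenic lung (adjusted p = 0.136).

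**Figure D4:**
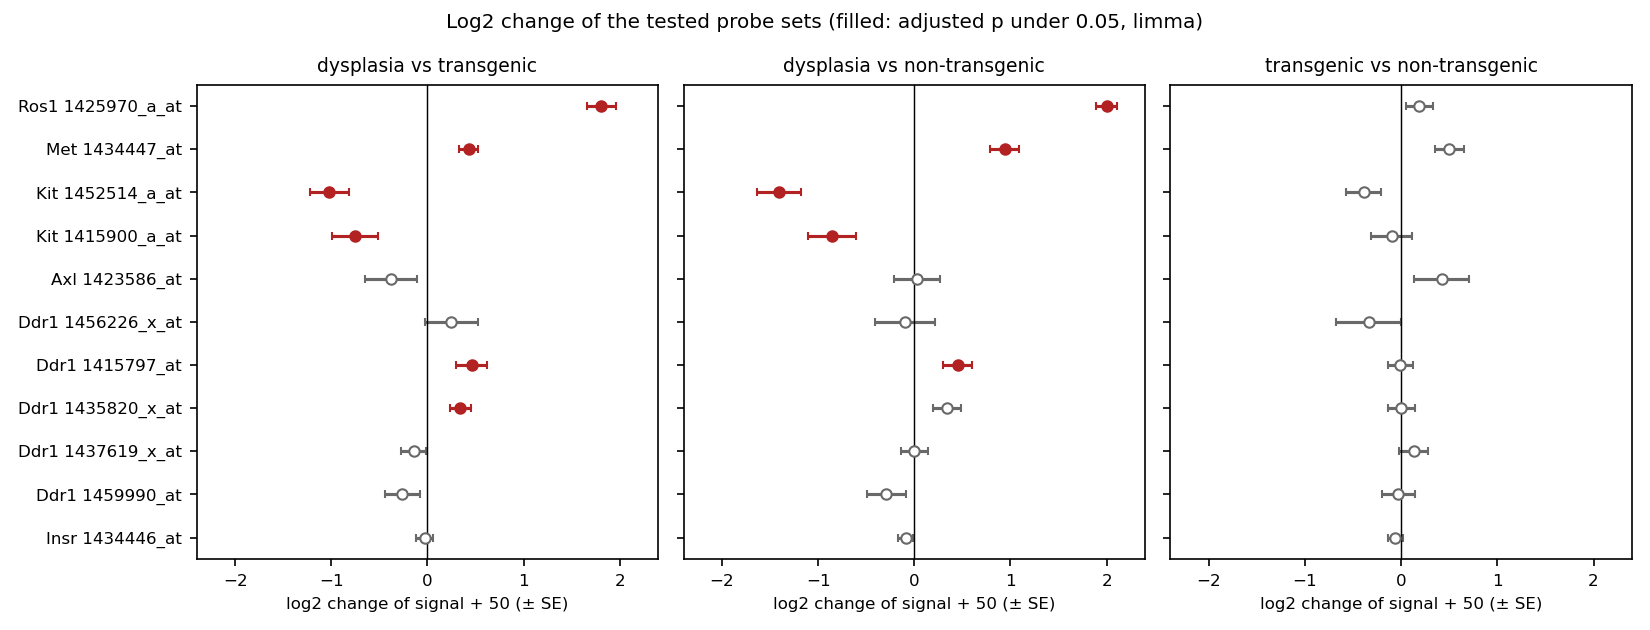
Log2 change of signal plus 50 with its standard error for the 11 tested probe sets, in dysplasia against transgenic, dysplasia against non-transgenic and transgenic against non-transgenic tissue. Filled points have an adjusted p under 0.05 by limma. Ros1 and Met are filled to the right and both Kit probe sets to the left in the comparisons with dysplasia, and no point is filled between transgenic and non-transgenic lung.

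Between transgenic unaltered and non-transgenic lung none of the 11 probe sets passed after adjustment. By limma 0 of 11 passed, where 1.26% of all tested probe sets passed (1.17% higher and 0.0831% lower). An unadjusted p under 0.05 was found for 2 of the 11, those of Met and of the brighter Kit probe set. SAM with 100 permutations also called 0.

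Adaptors that dock on activated receptors moved both ways, and as a list they passed about as often as all tested probe sets. Of 18 tested, 2 rose and 4 fell against transgenic tissue (median log2 change -0.20), and 4 rose and 4 fell against non-transgenic lung (-0.18), beside the 33.2% and 44.0% of all tested probe sets that passed. Shc1, an adaptor that links receptors to Ras, had log2 changes of 0.74 and 0.76 (adjusted p = 0.00241 and 0.00193, limma), and the kinase gene Src had 0.49 and 0.51. Gab2, a docking protein, had -0.78 and -0.54, and Pik3r1, the regulatory subunit of PI3 kinase, had -0.63 and -0.80. All 4 of these genes passed in both comparisons. Gab1, the docking protein of Met, had -0.31 (adjusted p = 0.0847) and -0.39 (adjusted p = 0.0388).

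Genes that dampen the receptors moved both ways. Of 16 tested, 6 rose and 5 fell against transgenic tissue (median log2 change -0.01), and 6 rose and 7 fell against non-transgenic lung (0.08). Over all tested probe sets 15.3% rose and 17.9% fell against transgenic tissue, and 20.7% rose and 23.3% fell against non-transgenic lung. The 3 ubiquitin ligases of the Cbl family, which mark active receptors for degradation, split. Cblc, which is made in epithelia, had 524.0 to 717.2 in dysplasia, 217.0 to 260.7 in transgenic tissue and 134.4 to 177.7 in non-transgenic lung (log2 changes 1.17 and 1.76, adjusted p = 9.77e-06 and 3.54e-07, limma). It was also higher in transgenic than in non-transgenic lung (log2 change 0.59, adjusted p = 0.0103). Cbl fell by 0.60 and 0.42 and Cblb fell by 0.55 and 0.43 on the log2 scale. All of these Cbl changes passed, as did those of Ptprb, Grb10, Grb14 and Lrig1 in both comparisons. Ptprb, a phosphatase of endothelial cells, had log2 changes of -1.68 and -1.89, beside the endothelial sums given for Kit. Grb10, an adaptor that restrains the insulin receptor, had -0.99 and -0.97, while its relative Grb14 had 0.48 and 0.37. Lrig1, which lowers the level of Met and other receptors, had 0.75 and 0.82.

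**Figure D5:**
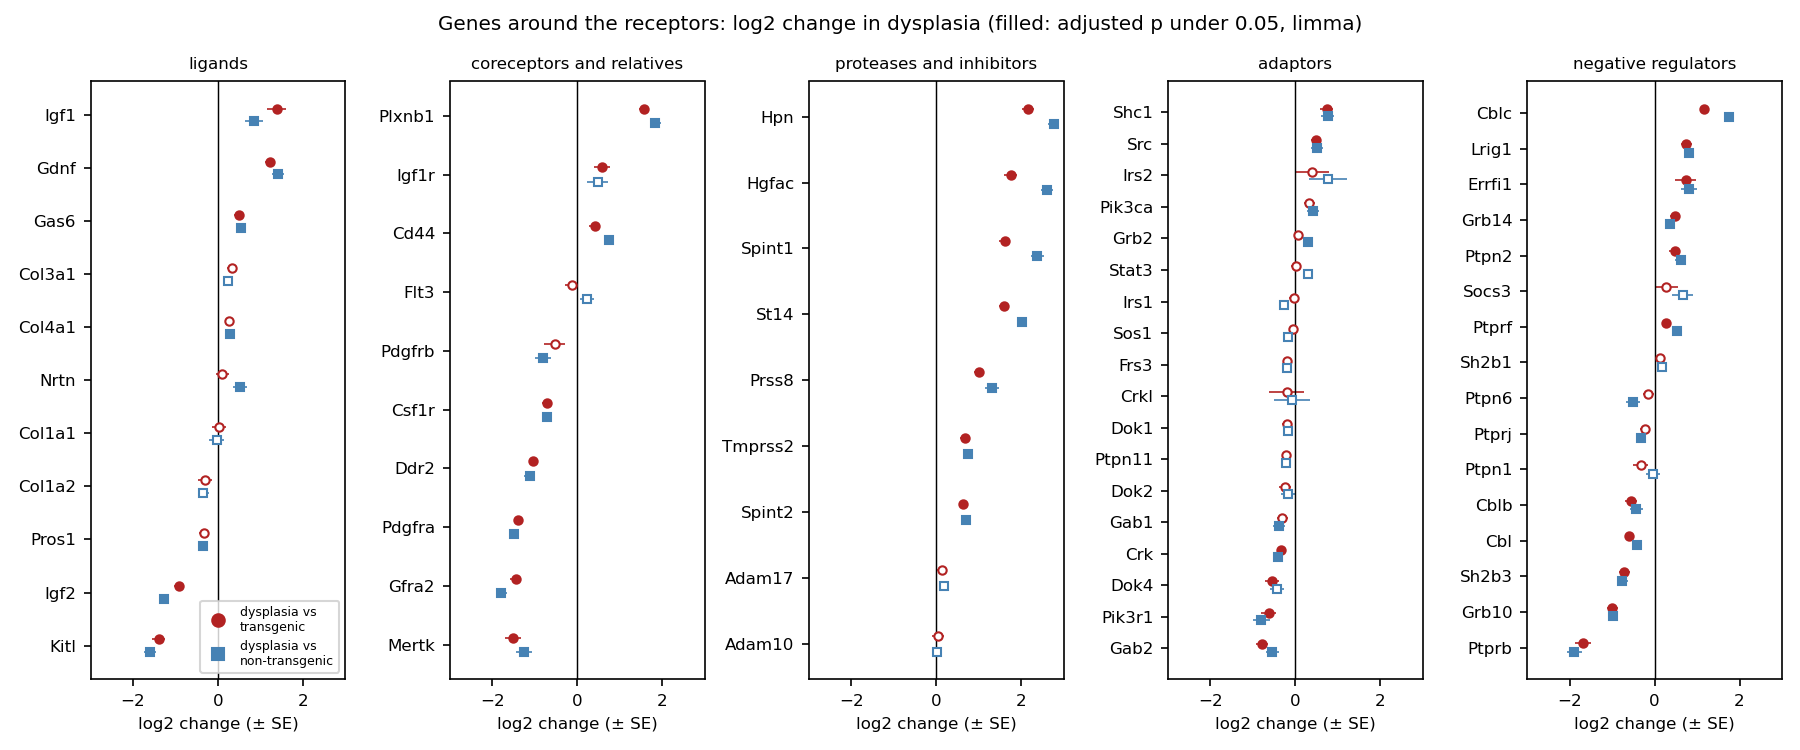
Log2 change of signal plus 50 with its standard error for the tested genes around the receptors, by role, in dysplasia against transgenic (circles) and against non-transgenic tissue (squares). Filled marks have an adjusted p under 0.05 by limma. In the list of proteases and inhibitors 7 of 9 genes are filled on the right, and the other lists hold filled marks on both sides.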

How the data were processed

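Microdissected lung RNA was measured on 15 Affymetrix arrays, 5 each of dysplasia, transgenic unaltered and non-transgenic lung. The deposited intensity values are the signals that the authors made in GCOS (version not given in the sources used here), with each array scaled to a target of 500. The mean after trimming 2% at each end was 500.0 on every array. Without the 64 controls there were 45037 probe sets, of which 34945 had 1 gene symbol in the platform annotation, 932 several and 9160 none. The 21658 probe sets that averaged more than 100 over the 15 arrays were tested on log2(signal + 50) with limma 3.58.1 (R 4.3.3), unpaired, 1 pair of groups at a time, with Benjamini-Hochberg adjustment over all of them. A gene was followed by its brightest probe set. A fold or ratio is that of mean signals, and the log2 change understates the change of dim probe sets. The number of arrays limits the precision.

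Members and gene lists were chosen with earlier results of these data known. Named were all members, up to 4 called genes per role list and comparison with the largest change, ligands and relatives of members, and the 5 nearest profiles per member. Further markers of fibroblasts, smooth muscle, lymphocytes, mesothelium and nerve were measured in the same way, and their counts are given under other observations.

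For each number, the deviations from the group mean of its dysplasia and its transgenic array correlated at 0.219 (number 4) to 0.773 (mean 0.612, against -0.15 for different numbers). The methods state that these tissues came from the same mice but do not tie the numbers to mice, and the number 4 arrays differed in Xist. Every such correlation was over 0.1, but the main test stayed unpaired, and the numbers were taken as pairs only in the alternatives with a block. They also went together across different mice, with means of 0.452 for transgenic and non-transgenic arrays (0.135 to 0.793) and 0.405 for dysplasia and non-transgenic arrays (-0.00366 to 0.727). Alternatives were an offset of 16 or none (floor of 1), quantile or total scaling, no signal limit or one of 200, all 3 groups in 1 fit, the number as a block with and without the actin ratio, the actin ratio or Xist as a covariate, a variance trend, SAM with 100 permutations and leaving out each array. Leaving out the arrays numbered 5 was chosen after seeing the data. Detection calls and raw scans were not used here, and the transgene is not reported here.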

Additional observations from a re-analysis of the deposited data

Results flagged for a closer look

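In 1 of 33 groups of 5 arrays, over the 11 tested probe sets, 1 array stood apart from the rest. Axl in dysplasia 5 had a signal of 648.6, while the other 4 dysplasia arrays were at 1127 to 1262. Its gap to the nearest array was 0.78 of the range of the group, above the critical value of 0.71. Chance alone gives about 1 such group in 20.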

How the results depend on the processing

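Ros1, Met and the brighter Kit probe set kept their direction and their call in both comparisons with dysplasia under every alternative in which they were tested. The count of called probe sets was 6 against transgenic tissue, and 3 to 6 with 1 array left out, with 3 without dysplasia 5 or without transgenic 2. Against non-transgenic lung it was 5, 4 to 5 with 1 array left out, and 3 with a signal limit of 200, under which Ros1 and the dimmer Kit probe set were no longer tested. Between transgenic and non-transgenic lung it was 0 throughout. With the number as a replicate block the counts were 7, 6 and 0, and the block alone changed no call but those of Axl and Ddr1 1435820_x_at given in the report. The dimmer Kit probe set lost its call against transgenic tissue in 6 leave-outs (adjusted p up to 0.0686). Ddr1 1415797_at lost it in 16 of 24 alternatives (up to 0.165), and its call against non-transgenic lung in 9 of 24 (up to 0.109), and 1435820_x_at lost its call against transgenic tissue in 9 of 24 (up to 0.141). Why was not tested.

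Uncalled changes turned sign as follows. Against transgenic tissue, Ddr1 1437619_x_at was 0.04 with the block and actin ratio, and Insr 0.01 with Xist (-0.07 to 0.01 with 1 array left out). Against non-transgenic lung, Ddr1 1437619_x_at was 0.00 with an offset of 16 or none, 0.11 with quantile scaling, 0.05 with the block and actin ratio, 0.08 with the actin ratio and 0.06 with Xist (-0.09 to 0.09 with 1 array left out). Ddr1 1456226_x_at was 0.49 with the block and actin ratio, 0.03 with the actin ratio and 0.12 without the arrays numbered 5 (-0.38 to 0.01 with 1 array left out), and Axl was -0.04 and -0.13 with the first 2 of these (-0.16 to 0.21). Between transgenic and non-transgenic lung, quantile scaling gave 0.01 for Ddr1 1415797_at, 0.02 for 1435820_x_at and 0.02 for 1459990_at, the block with the actin ratio gave 0.00 for 1435820_x_at, and leaving out the arrays numbered 5 gave 0.07 for 1415797_at. With 1 array left out the ranges were -0.09 to 0.08, -0.12 to 0.07 and -0.15 to 0.05 for these 3, and -0.28 to 0.04 for the dimmer Kit probe set. Signals near 100 limit what can be read for Mst1r, Ret and unaltered-lung Ros1.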

Other observations

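Other cell type markers changed as follows in dysplasia against transgenic tissue, where 15.3% of all tested probe sets rose and 17.9% fell. Fibroblast markers fell in 5 of 12 tested genes and smooth muscle and pericyte markers in 7 of 8, with none rising in either list. Lymphocyte markers fell in 4 of 8 and mesothelial markers in 4 of 4. Of the mesothelial genes only Upk1b averaged over 100 in dysplasia (212.9). The means of Upk3b (59.4), Msln (65.2), Lrrn4 (34.6) and the lymphocyte gene Gata3 (75.7) in dysplasia were lower, so that these met the signal limit through unaltered tissue alone. Of 9 alveolar type 2 markers 1 rose and none fell, of 9 alveolar type 1 markers 1 rose and 6 fell, and of 6 club cell markers 3 rose and 1 fell. Of 6 ciliated cell markers Foxj1, Ccdc113, Tekt1 and Dnah5 were below the signal limit. The other 2 had summed signals of 1168 to 1358 in dysplasia, 114.6 to 264.5 in transgenic tissue and 125.9 to 343.1 in non-transgenic lung, and Rsph1, 1 of them, averaged over 100 through dysplasia alone (202.6, against 55.6 in transgenic tissue and 96.0 in non-transgenic lung), so that no direction was read for this list. The 1 tested gene of the nerve and neuroendocrine list, Syp, averaged over 100 through unaltered tissue alone. Its mean was 66.4 in dysplasia, 126.4 in transgenic tissue and 144.1 in non-transgenic lung, so that no direction was read for this list.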
